A study of Mus musculus with 8 samples.

Results

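In RNA-seq of mouse pluripotent stem cells, 10 genes of the machinery that writes, recruits and reads methylation of lysine 9 of histone H3 (H3K9) were followed by name. They were Trim28, Setdb1, Zfp57, Ehmt1, Ehmt2, Suv39h1, Suv39h2, Cbx1, Cbx3 and Cbx5. Each had 1 row among the 22878 gene rows (22499 distinct names), and all 10 passed the filter for testing, for which 1 library with an FPKM of 1 or more was enough, as did 13693 genes in all. Expression is given as FPKM (fragments divided by transcript length and by sequencing depth), so that levels can be compared between genes of different length. All deposited values were divided by the same constant, and the levels and the filter refer to these rescaled values.

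The reference was the embryonic stem cell (ESC) line R1, with 2 libraries. It was compared with 4 secondary induced pluripotent stem cell (iPSC) lines, which were derived again from somatic cells of mice made entirely from iPSCs, cells that carry doxycycline-inducible Oct4, Sox2, c-Myc and Klf4. Line 16-6 came from mesodermal hematopoietic cells and line 32 from mesodermal adipocyte progenitors, with 2 libraries each. Line S8 came from ectodermal epidermal cells and line T2 from the endodermal lining of the stomach, with 1 library each. All cells were grown with LIF on mitomycin C-treated mouse embryonic fibroblast feeders. Each origin was represented by 1 line, so the line and its tissue of origin cannot be told apart, and a difference involving S8 or T2 borrowed its error from the replicates of R1, 16-6 and 32. The study calls the paired libraries biological replicates, while the labels do not say that they came from separate cultures, so the p-values measure the spread between these libraries.

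The marks placed by these proteins keep repeats, imprinted regions and lineage genes silent in ESCs. KRAB zinc finger proteins such as ZFP57 recognise DNA and bring in the corepressor TRIM28, which recruits the methyltransferase SETDB1 and the heterochromatin protein 1 (HP1) family. EHMT1 (GLP) and EHMT2 (G9a) act as a heterodimer on euchromatic H3K9, SUV39H1 and SUV39H2 trimethylate H3K9 at pericentric repeats, and HP1β (Cbx1), HP1γ (Cbx3) and HP1α (Cbx5) bind the methylated residue.

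The pluripotency check list of 10 genes was expressed in every library, with a summed FPKM between 2951 and 5885. Markers of the parental tissues summed to at most 29.0 FPKM for blood, 15.3 for adipocytes, 2.85 for epidermis and 0.00692 for stomach. Primitive endoderm markers summed to at most 4.12. The blood and adipocyte maxima were in R1, where Cd34 was at 26.6 and 27.3 FPKM and Fabp4 at 9.70 and 10.1 FPKM. In the iPSC libraries Cd34 reached at most 7.86 FPKM and Fabp4 at most 0.823 FPKM. Of 5 stomach markers, 4 were at 0 in every library. The list of 14 fibroblast markers, none of them at 0 in all libraries, differed much more. Its sum was 1173 and 1296 in R1, 2424 and 2446 in 16-6, 112 and 111 in 32, 565 in S8 and 741 in T2. In these bulk libraries fewer cells of a type and less RNA per cell cannot be told apart. The 10 highest genes held 19.2% to 26.5% of the summed FPKM in R1, 16-6 and 32 and 13.6% and 12.7% in S8 and T2. The fragments implied by the confidence limits in the files came to between 15.5 and 16.7 per library in units of 1000000. These sums do not follow the sequencing depth, since the study lists several times more reads for S8 and T2, and a lower share of them mapped uniquely, than for the other lines. A difference of S8 and T2 from the other lines therefore cannot be told apart from this difference in sequencing.

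Upstream sequence is shown for the members with the widest spread between lines, Zfp57 and Cbx3, for the corepressor Trim28, and for Suv39h2, the member that differed most from R1 in 32. Each is the 250 bases before an annotated start from RefSeq (GRCm38.p6), 5′ to 3′ on the strand of the gene, with CpG dinucleotides in capitals. The Zfp57 window is chr17:37000913-37001162 on the plus strand, the Cbx3 window chr6:51470366-51470615 on the plus strand, the Trim28 window chr7:13023902-13024151 on the plus strand and the Suv39h2 window chr2:3474987-3475236 on the minus strand.
Zfp57: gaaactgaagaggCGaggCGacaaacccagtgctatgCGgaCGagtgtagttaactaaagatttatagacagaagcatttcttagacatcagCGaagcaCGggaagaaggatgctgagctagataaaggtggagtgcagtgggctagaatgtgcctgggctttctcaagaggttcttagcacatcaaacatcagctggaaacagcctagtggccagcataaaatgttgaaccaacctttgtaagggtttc
Cbx3: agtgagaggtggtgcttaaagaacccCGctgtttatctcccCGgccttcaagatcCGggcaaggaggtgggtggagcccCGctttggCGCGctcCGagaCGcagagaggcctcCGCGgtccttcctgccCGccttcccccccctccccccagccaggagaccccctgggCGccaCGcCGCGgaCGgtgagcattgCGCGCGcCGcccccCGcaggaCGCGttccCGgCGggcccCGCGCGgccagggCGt
Trim28: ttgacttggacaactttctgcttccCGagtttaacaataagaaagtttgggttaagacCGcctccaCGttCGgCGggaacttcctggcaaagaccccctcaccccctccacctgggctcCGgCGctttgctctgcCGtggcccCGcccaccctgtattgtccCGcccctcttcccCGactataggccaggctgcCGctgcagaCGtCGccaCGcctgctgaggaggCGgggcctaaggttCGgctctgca
Suv39h2: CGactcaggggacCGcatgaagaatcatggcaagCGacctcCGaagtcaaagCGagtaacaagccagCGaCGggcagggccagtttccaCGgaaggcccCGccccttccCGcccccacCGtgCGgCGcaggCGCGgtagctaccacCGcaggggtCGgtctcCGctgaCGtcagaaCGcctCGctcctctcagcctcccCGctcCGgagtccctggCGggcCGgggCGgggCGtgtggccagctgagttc
CpGs were dense upstream of Cbx3 and Suv39h2 and at the median upstream of Zfp57. The windows held 6 CpGs for Zfp57, 29 for Cbx3, 17 for Trim28 and 27 for Suv39h2, beside a median of 6 over 32851 promoters. RefSeq gave 16 starts for the 10 members. The 3 Zfp57 windows had 6, 7 and 3 CpGs, and the other 13 had 7 to 36. The letters TGCCGC, the hexamer that ZFP57 recognises when methylated, were searched on both strands and occurred in 3 of the 16 windows, 1 each of Trim28, Ehmt2 and Suv39h1, and in 8.7% of all promoter windows. No Zfp57 window held these letters. The GC box GGGCGG was present in 12 of the 16 windows, none of them of Zfp57, against 32.7% of all windows. CCAAT occurred in 4 windows against 33.8% and CACGTG in 3 against 6.0%, both searched on both strands like the GC box. These matches describe the letters alone.

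The members spanned a wide range of level, from Suv39h2 at a mean of 15.0 FPKM over the 8 libraries to Trim28 at 1060 FPKM, which lay above 99% of the tested genes. Between them came Suv39h1 (24.8), Ehmt1 (30.7), Setdb1 (44.1), Ehmt2 (75.4), Cbx5 (116), Zfp57 (118), Cbx1 (233) and Cbx3 (307). All 80 values carried the status OK. The half-width of the file's confidence interval was between 0.83% of the value for Trim28 and 10.9% for Suv39h2, for which the interval implied between 339 and 1092 fragments. Such implied numbers are not read counts. For Setdb1 in R1 they were 1839 and 4026 at nearly equal levels of 46.3 and 45.9 FPKM.

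**Figure D1:**
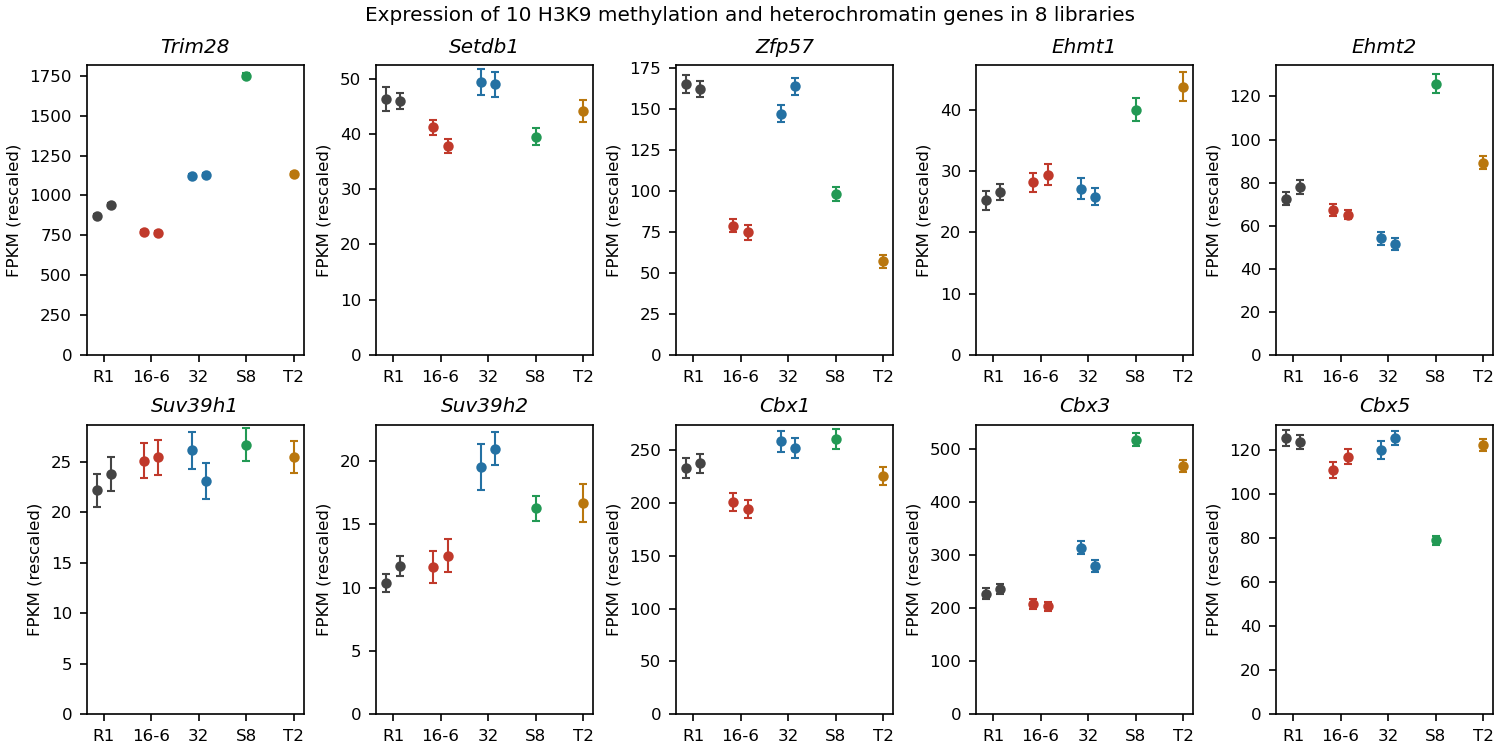
FPKM of each member (vertical axes from 0, a scale per gene) in the 2 libraries of R1, 16-6 and 32 and the single libraries of S8 and T2, with bars for the confidence limits in the files. Zfp57 is low in 16-6 and T2, Cbx3 is high in S8 and T2, Trim28 and Ehmt2 are highest in S8, and Suv39h1 stays between 22.2 and 26.7 FPKM.

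The range of the line means on the log2(FPKM + 1) scale was 1.50 for Zfp57, 1.33 for Cbx3, 1.24 for Ehmt2 and 1.19 for Trim28. It was 0.82 for Suv39h2, 0.74 for Ehmt1, 0.65 for Cbx5, 0.40 for Cbx1, 0.31 for Setdb1 and 0.21 for Suv39h1. The median of these ranges was 0.78 for the members and 0.82 for all tested genes. Suv39h1 varied less than all but 0.957% of the tested genes and Zfp57 more than 85.3% of them. By the limma F test 9 of the 10 members differed somewhere among the 5 lines, Suv39h1 being the exception (adjusted p = 0.278), against 88.4% of all tested genes. In no member did all 6 iPSC libraries lie above both R1 libraries, an order found in 14.2% of all tested genes, and in none did they all lie below, as in 16.8% of all tested genes.

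Zfp57 (chr17:37138108-37147674, mm9), which protects imprints after fertilisation, gave the largest differences of the 10. Its FPKM was 165 and 162 in R1, 147 and 164 in 32, 98.4 in S8, 78.9 and 74.7 in 16-6, and 57.1 in T2. The libraries of R1 and 32 overlapped, and the 4 libraries of S8, 16-6 and T2 lay well below them. Against R1, Zfp57 was 2.12-fold lower in 16-6 (log2 difference -1.08, SE 0.06, adjusted p = 0.000297 by limma with Benjamini-Hochberg adjustment) and 2.83-fold lower in T2 (-1.50, SE 0.08, adjusted p = 0.000259). In S8 it was 1.66-fold lower (-0.73, SE 0.08, adjusted p = 0.000923). These 3 calls held in every alternative run. For line 32 the difference was -0.08 with a 95% interval from -0.24 to 0.09, and it passed the threshold under quantile normalization alone (-0.30, adjusted p = 0.0157).

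The 2 mesodermal lines differed in Zfp57. The direct contrast of 16-6 with 32 was -1.01 (SE 0.06, adjusted p = 0.000203), and that of S8 with T2 was 0.77 (SE 0.09, adjusted p = 0.0052). In the order R1, 32, S8, 16-6, T2, only the neighbours R1 and 32 did not differ past the threshold. In 16-6 the pluripotency list moved too, with 9 of 10 genes lower and 1 higher than in R1 and a median difference of -0.47, while 10 of the 14 fibroblast markers were higher and 3 lower, among them Dcn (-2.63) and Lum (-2.72), with a median of 1.28. In T2, where Zfp57 was lowest, the pluripotency median was -0.19 and the fibroblast median -0.95. The part of these markers in the Zfp57 values was not tested. Genes closest to Zfp57 over the 8 libraries, by root mean square distance of centred log2 values, were AU018091 (0.11), Abcb1a (0.12), Slc29a1 (0.13), Cdyl2 (0.13) and Klf4 (0.14).

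Trim28 (chr7:13609501-13616381, mm9), the corepressor that ZFP57 recruits, did not follow it. Trim28 had an FPKM of 872 and 939.8 in R1, 772 and 766 in 16-6, 1121 and 1128 in 32, 1751 in S8 and 1134 in T2. The single library of S8 stood apart, 32 and T2 were together above R1, and 16-6 was below R1. The difference from R1 was 0.95 in S8 (SE 0.07, adjusted p = 0.000286), 0.33 in T2 (SE 0.07, adjusted p = 0.0116) and 0.31 in 32 (SE 0.05, adjusted p = 0.006). It was -0.24 in 16-6 (SE 0.05, adjusted p = 0.0175), a call lost when either 16-6 library was left out (adjusted p = 0.0832 and 0.0935). Quantile normalization ended the call in 32 (0.03, adjusted p = 0.571) and that of S8 against T2, which was 0.63 (adjusted p = 0.00601) in the main fit and 0.15 (adjusted p = 0.169) after it. Under this scaling the differences of all genes in 32 against R1 moved up by a median of 0.14, while that of Trim28 moved down.

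Setdb1 (chr3:95127447-95161124, mm9), the methyltransferase brought in by TRIM28, kept a narrow range. It was at 46.3 and 45.9 FPKM in R1, 41.2 and 37.8 in 16-6, 49.4 and 49.0 in 32, 39.5 in S8 and 44.1 in T2. The values in 16-6 and S8 were the low ones, and those of 32 exceeded all others. Both low lines passed the test against R1, with differences of -0.22 in 16-6 (SE 0.05, adjusted p = 0.0162) and -0.22 in S8 (SE 0.06, adjusted p = 0.0268), but not when a single R1 library was left out. Without R1 replicate 1 the adjusted p was 0.0683 and 0.0808, and without R1 replicate 2 it was 0.0585 and 0.0697. Leaving out 16-6 replicate 2 also ended the call in 16-6 (-0.16, adjusted p = 0.0598), as did median ratio scaling (-0.15, adjusted p = 0.0594). The annotated span of Setdb1 overlaps the opposite-strand gene Lass2 by 64 bases. The ratio of Trim28 to Setdb1 in FPKM was 18.7 to 23.0 in R1, 16-6 and 32, 25.7 in T2 and 44.3 in S8.

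Ehmt1 (chr2:24646294-24775110, mm9) and Ehmt2 (chr17:35035444-35050992, mm9), whose products work as a pair, behaved differently in the same libraries. Ehmt1 was at 25.2 and 26.6 FPKM in R1, 28.2 and 29.4 in 16-6, 27.1 and 25.8 in 32, 40.0 in S8 and 43.8 in T2. All 6 libraries of R1, 16-6 and 32 lay below S8 and T2, an order that was not counted over all tested genes. Against R1 the difference was 0.61 in S8 (SE 0.06, adjusted p = 0.000762) and 0.74 in T2 (SE 0.06, adjusted p = 0.000764), each held under every alternative. In 16-6 it was 0.15 (95% interval 0.02 to 0.27, adjusted p = 0.0553), past the threshold with quantile normalization (adjusted p = 0.038) and median ratio scaling (adjusted p = 0.0126), and in 32 it was 0.03 (95% interval -0.10 to 0.16).

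Ehmt2 was at 72.5 and 77.8 FPKM in R1, 67.3 and 65.1 in 16-6, 54.1 and 51.4 in 32, 126 in S8 and 89.3 in T2. No line overlapped another, and each of the 4 neighbouring pairs in the order S8, T2, R1, 16-6, 32 passed the test. Compared with R1, Ehmt2 was higher by 0.74 in S8 (SE 0.06, adjusted p = 0.000482) and lower in 32 (-0.50, SE 0.05, adjusted p = 0.00104), with both calls kept in every alternative. The smaller differences were 0.25 in T2 (adjusted p = 0.023), lost without R1 replicate 1 (0.20, adjusted p = 0.0625), and -0.18 in 16-6 (adjusted p = 0.0335), lost without R1 replicate 2 (-0.13, adjusted p = 0.116) and without either 16-6 library (adjusted p = 0.0875 and 0.151). FPKM of Ehmt2 was 2.88 and 2.93 times that of Ehmt1 in R1, 2.39 and 2.22 times in 16-6, 1.99 times in both libraries of 32, 3.15 times in S8 and 2.04 times in T2.

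Suv39h1 (chrX:7638297-7651886, mm9) was the steadiest member and Suv39h2 (chr2:3373087-3392258, mm9) was not. Suv39h1 was at 22.2 and 23.8 FPKM in R1, 25.1 and 25.5 in 16-6, 26.2 and 23.1 in 32, 26.7 in S8 and 25.5 in T2. No comparison passed the test for it, and the 95% interval of its difference from R1 reached at most 0.43, in S8. Without 32 replicate 1 or 32 replicate 2 the difference in S8 of 0.21 passed (adjusted p = 0.0451 and 0.0445), as did that of the 4-line mean without 32 replicate 2 (0.17, adjusted p = 0.0319). Its annotated span overlaps that of the opposite-strand transcript Gm14820 over 13449 bases, and since strand is not stated for the counting, reads of the overlapping transcript cannot be told apart.

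Suv39h2 was at 10.4 and 11.7 FPKM in R1, 11.6 and 12.5 in 16-6, 19.5 and 21.0 in 32, 16.3 in S8 and 16.7 in T2. R1 and 16-6 overlapped, S8 and T2 were higher and both 32 libraries were highest. The difference from R1 was 0.82 in 32 (1.76-fold, SE 0.08, adjusted p = 0.000829), 0.56 in T2 (SE 0.10, adjusted p = 0.00611) and 0.52 in S8 (SE 0.10, adjusted p = 0.00584). It was 0.12 in 16-6 with a 95% interval from -0.08 to 0.32. The contrast of 16-6 with 32 was -0.70 (SE 0.08, adjusted p = 0.00123). The span of Suv39h2 overlaps the opposite-strand genes Dclre1c over 8316 bases and Gm13184 over 5934 bases, with the same limit. Suv39h1 exceeded Suv39h2 by 2.03 to 2.16 times in R1 and 16-6, 1.64 times in S8, 1.53 times in T2 and 1.10 to 1.34 times in 32.

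**Figure D2:**
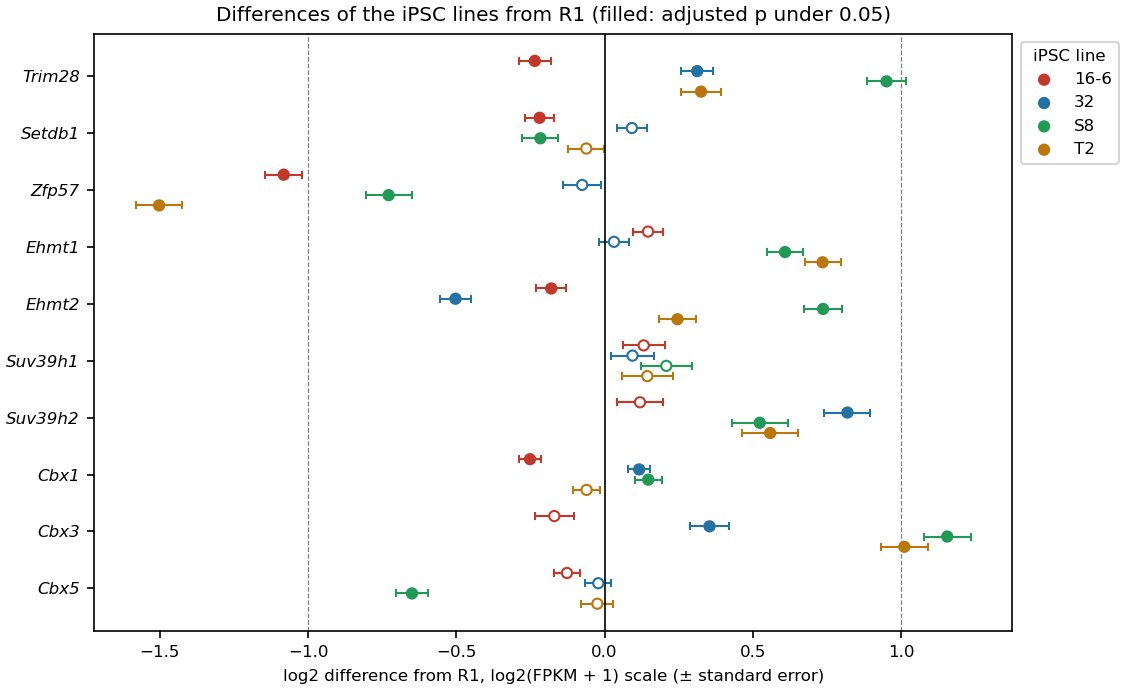
Fitted log2 differences of each member (rows) between an iPSC line (colour) and R1, with standard errors and dashed lines at a 2-fold difference. Points beyond the dashed lines belong to Zfp57 in 16-6 and T2 and to Cbx3 in S8 and T2, and all 4 Suv39h1 points are open.

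Among the HP1 genes, Cbx3 (chr6:51420615-51433703, mm9) was the most variable. Cbx3 was at 228 and 236 FPKM in R1, 209 and 203 in 16-6, 314 and 280 in 32, 517 in S8 and 468 in T2. The order was 16-6, R1, 32, then T2 and S8, with no overlap between the lines. It was 2.23-fold higher in S8 than in R1 (log2 difference 1.16, SE 0.08, adjusted p = 0.000265) and 2.02-fold higher in T2 (1.01, SE 0.08, adjusted p = 0.000674), and these calls held in every alternative. In 32 the difference was 0.35 (SE 0.06, adjusted p = 0.0069), lost under quantile normalization (0.09, adjusted p = 0.254). In 16-6 it was -0.17 (95% interval -0.34 to -0.00358, adjusted p = 0.0769), and it passed the threshold without 32 replicate 1 (adjusted p = 0.0305) or 32 replicate 2 (adjusted p = 0.0307) and with quantile normalization (-0.25, adjusted p = 0.0201). S8 and T2 themselves differed by 0.14 (adjusted p = 0.27). Genes closest to Cbx3 over the 8 libraries were Grb7 (distance 0.08), G3bp1 (0.09), Slc25a33 (0.09), C1ql1 (0.10) and Cdc6 (0.10).

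The level of Cbx3 carries a limit that the other members largely lack. Of 1859 windows of 31 bases along its annotated transcript, 1634 (87.9%) also occurred elsewhere in the mm9 genome, outside the Cbx3 locus, compared with 10% for Setdb1, 3.1% for Cbx1, at most 1.8% for the other genes and 0 for Zfp57 and Suv39h2. Such a stretch has more than 1 exact match in the genome and only unique alignments were kept, so the level of Cbx3 is uncertain. The part of this in the values of S8 and T2, which also stood apart in the share held by the 10 highest genes, was not tested. Between the 3 HP1 genes the annotated transcripts held no such stretch in common, the longest identical run being 20 bases. Their coding sequences were 72.2% to 72.6% identical.

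**Figure D3:**
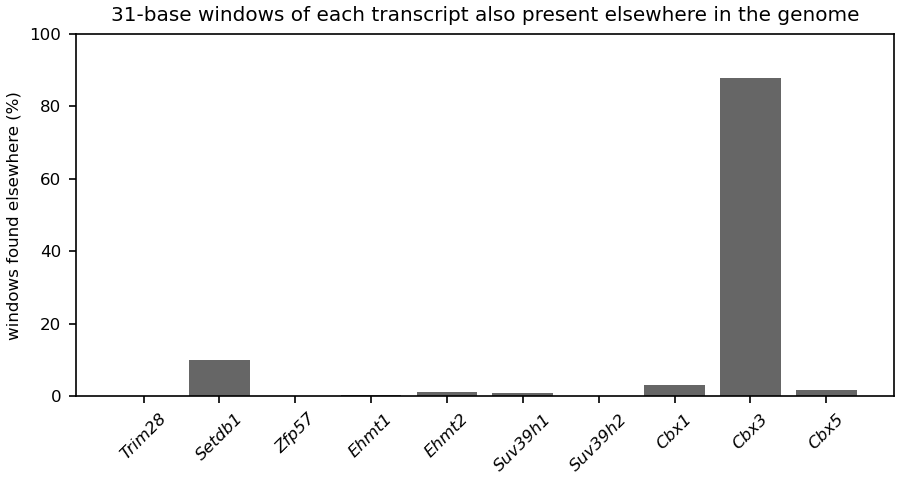
Percentage of 31-base windows along one annotated transcript of each member (horizontal axis) that are found again outside the gene's own locus in the mm9 genome. The bar for Cbx3 stands at 87.9% and that for Setdb1 at 10%, with all others at 3.1% or less.

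Cbx5 (chr15:103021977-103070247, mm9) passed the test against R1 in S8 alone, quantile normalization apart. It was at 126 and 124 FPKM in R1, 111 and 117 in 16-6, 120 and 125 in 32, 122 in T2 and 79.0 in S8. Only S8 lay outside the range from 111 to 126 FPKM. Cbx5 was 1.57-fold lower there than in R1 (-0.65, SE 0.05, adjusted p = 0.000443) and lower than in T2 (-0.63, SE 0.06, adjusted p = 0.0038), under every alternative. The difference from R1 was -0.02 in both 32 (95% interval -0.13 to 0.09) and T2 (95% interval -0.16 to 0.11), and with quantile normalization that in 32 was -0.23 (adjusted p = 0.0104). In 16-6 the difference was -0.13 (95% interval -0.24 to -0.01, adjusted p = 0.0588), and -0.16 with quantile normalization (adjusted p = 0.0309).

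Cbx1 (chr11:96650450-96669954, mm9) was at 233 and 237 FPKM in R1, 201 and 194 in 16-6, 259 and 252 in 32, 261 in S8 and 226 in T2. The 16-6 libraries were the lowest, with a difference from R1 of -0.25 (SE 0.04, adjusted p = 0.00421) and from 32 of -0.37 (SE 0.04, adjusted p = 0.000958) that every alternative kept. The positive differences were small, 0.12 in 32 (adjusted p = 0.0447) and 0.15 in S8 (adjusted p = 0.0379). Leaving out any 1 of the libraries of R1, 16-6 or 32 ended both calls, and quantile normalization turned their direction (-0.16 and -0.23, adjusted p = 0.0158 and 0.00732). A pseudogene on the opposite strand, Gm11517, overlaps the span of Cbx1 by 414 bases.

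The composition of the HP1 transcripts in S8 and T2 differed from that in the other lines. Cbx3 held 38.8% and 39.5% of the summed HP1 FPKM in R1, 40.1% and 39.5% in 16-6, 45.3% and 42.6% in 32, 60.4% in S8 and 57.3% in T2. Cbx5 held 20.7% to 22.7% in R1 and 16-6, 17.3% and 19.1% in 32, 15.0% in T2 and 9.22% in S8. The sum of the 3 genes was 515 to 597 FPKM in R1 and 16-6, 693 and 657 in 32, 857 in S8 and 816 in T2. These shares rest on Cbx3 and carry its limit.

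**Figure D4:**
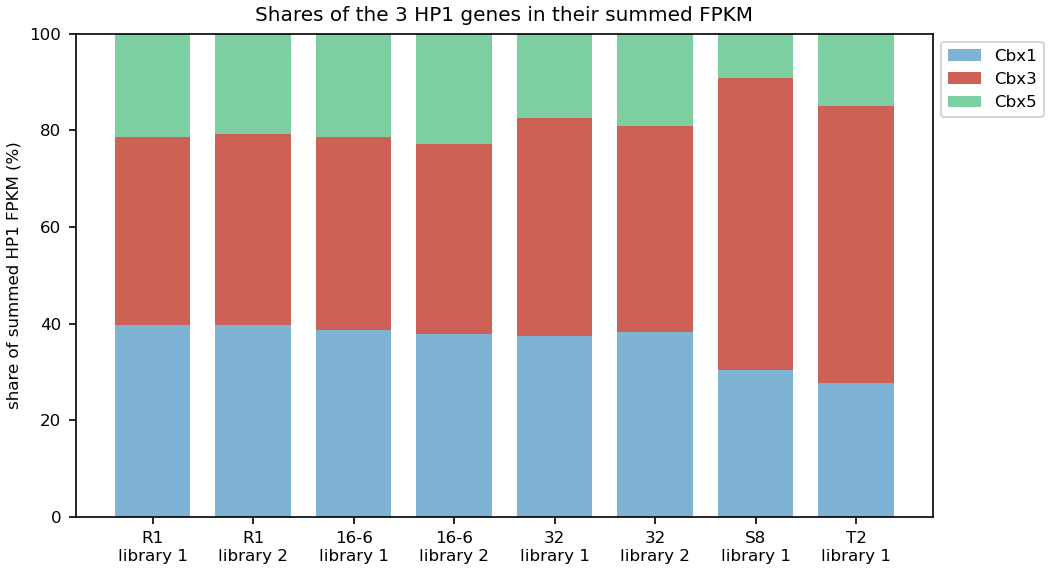
Share of Cbx1, Cbx3 and Cbx5 in their summed FPKM (vertical axis, %) in each of the 8 libraries. Cbx3 takes 38.8% to 45.3% in R1, 16-6 and 32 and more than 57% in S8 and T2, and the Cbx5 share is 9.22% in S8.

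Set side by side, Trim28 and Ehmt2 passed the test against R1 in all 4 lines, in directions that differed between lines. Zfp57, Cbx3, Suv39h2 and Cbx1 each passed in 3. The 6 members called in T2 were also called in S8, in the same directions, but S8 had 9 of the 10 members called and both contrasts use the R1 libraries. The share of all tested genes that passed in 3 or 4 lines, or in both T2 and S8, was not counted. The counts of each line are to be read against the share of all tested genes that passed. In 16-6, 0 members were higher and 5 lower (Zfp57, Cbx1, Setdb1, Trim28 and Ehmt2), compared with 25.7% and 29.9% of all tested genes. Only Zfp57 differed by at least 2-fold, as did 7.11% of all genes. The count of 5 came to between 2 and 6 when 1 library was left out, with 2 without 16-6 replicate 2 and 3 without 16-6 replicate 1 or without R1 replicate 2. It came to 3 with the 16-6 libraries averaged and to 8 with quantile normalization, 1 higher and 7 lower. Median ratio scaling gave 1 higher and 3 lower. The median difference of the members was -0.17, and that of all genes was -0.03.

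In 32, 4 members were higher (Suv39h2, Cbx3, Trim28 and Cbx1) and 1 lower (Ehmt2), against 28.6% and 32.9% of all tested genes. This split depended on the scaling, since quantile normalization gave 1 higher and 4 lower, and median ratio scaling 3 higher and 1 lower. No member reached a 2-fold difference, as 9.77% of genes did. The median absolute difference was 0.11 for the members and 0.32 for all genes.

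In S8, 6 members were higher (Cbx3, Trim28, Ehmt2, Ehmt1, Suv39h2 and Cbx1) and 3 lower (Zfp57, Cbx5 and Setdb1), against 32.1% and 34.6%. Quantile normalization gave 5 higher and 4 lower. Cbx3 was the 1 member at 2-fold or more, beside 16.7% of all genes. The median absolute difference was 0.63 for the members and 0.47 for all genes.

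In T2, 5 members were higher (Cbx3, Ehmt1, Suv39h2, Trim28 and Ehmt2), against 27% of all tested genes, and 1 was lower (Zfp57), against 30.9%, or 5 and 2 with quantile normalization. Cbx3 and Zfp57 differed by at least 2-fold, as did 10.5% of all genes. The comparisons with R1 share its 2 libraries, so their members' values are not independent of each other. Of 4 reference genes, Actb passed as higher than in R1 in 16-6 (0.53), 32 (0.28), S8 (0.60) and T2 (0.27). Hprt passed as lower in the same lines (-0.61, -0.24, -0.41 and -0.54). Tbp passed in 32 alone (0.27) and Gapdh in T2 alone (-0.49). Several of the member differences called were no larger than these.

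Between the 2 mesodermal lines, 16-6 had 1 member higher than 32 (Ehmt2) and 6 lower (Zfp57, Suv39h2, Trim28, Cbx3, Cbx1 and Setdb1), against 27.5% and 32.9% of all tested genes, and Zfp57 alone at 2-fold or more, against 10.3%. Median ratio scaling gave 2 higher and 6 lower. The median was -0.34 for the members and -0.06 for all genes. All 14 fibroblast markers were higher in 16-6 than in 32 (median 4.38), and all 10 pluripotency genes were lower (median -0.74). Their part in the members' values was not tested.

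Between S8 and T2, 4 members were higher in S8 (Zfp57, Trim28, Ehmt2 and Cbx1) and 1 lower (Cbx5), against 16.9% and 17.6%, with none at 2-fold, against 2.75%. Quantile normalization left 2 higher and 1 lower. The Cbx1 call there was lost on leaving out any 1 library of R1, 16-6 or 32. Of the 14 fibroblast markers, 0 were higher and 6 lower in S8 (7 lower with either other scaling), and 5 of 10 pluripotency genes were higher and 1 lower in S8, or 1 and 1 with quantile normalization. As each of these lines had 1 library, no replicate of either enters this contrast.

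When the 4 iPSC lines were averaged and set against R1, 4 members were higher and 2 lower, against 29.9% and 35.2% of all tested genes, with none at 2-fold, against 6.41%. Cbx3 (0.59), Suv39h2 (0.51), Ehmt1 (0.38) and Trim28 (0.34) were higher, and Zfp57 (-0.85) and Cbx5 (-0.21) were lower. The error of this mean holds the spread of replicates and not that between lines, and none of these members moved the same way past the threshold in all 4 lines. To order the lines, 16-6 and 32 were also compared with S8 and T2 after the data were seen. Of all tested genes, 66.6% passed for 16-6 against S8, 52.4% for 16-6 against T2, 60.8% for 32 against S8 and 52.3% for 32 against T2.

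The wider pathway was counted in lists. Of 10 H3K9 methyltransferases and partners outside the 10 members, 9 were tested. In 16-6, 2 were higher and 4 lower than in R1, in 32 5 and 1, in S8 1 and 6, and in T2 2 and 3. The medians were -0.03, 0.19, -0.25 and -0.12, and the first of them turned to 0.03 with median ratio scaling. For 16-6 the counts were 3 and 2 with quantile normalization. Of all tested genes, 25.7% were higher and 29.9% lower in 16-6, and 28.6% and 32.9% in 32. The shares were 32.1% and 34.6% in S8 and 27% and 30.9% in T2. Cdyl2, a chromodomain protein that binds methylated H3K9, was at 20.3 and 21.2 FPKM in R1, 10.7 and 11.3 in 16-6, 18.8 and 22.9 in 32, 11.0 in S8 and 8.13 in T2. Its difference from R1 was -1.25 in T2 (SE 0.12, adjusted p = 0.00111), -0.86 in 16-6 (adjusted p = 0.00175) and -0.86 in S8 (adjusted p = 0.00236). In 32 its 2 libraries enclosed those of R1, and the S8 value lay between the 2 libraries of 16-6.

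Of the 7 genes of the HUSH silencing complex and of KRAB partners, 1 was higher and 4 lower in 16-6, 4 and 0 in 32, 2 and 2 in S8, and 3 and 2 in T2, with medians of -0.16, 0.28, 0.11 and 0.11. The median in S8 turned to -0.09 with quantile normalization. These counts are to be read against the shares of all tested genes given for the list before. Pphln1, which encodes the HUSH subunit periphilin, was at 19.4 and 20.1 FPKM in R1, 42.9 and 46.6 in 16-6, 41.7 and 44.4 in 32, 47.6 in S8 and 59.7 in T2. All 6 iPSC libraries were more than 2-fold above both R1 libraries. Without a fold minimum, 14.2% of all tested genes had all 6 above both, and the share at 2-fold was not counted. The fitted difference was 1.14 in 16-6 (SE 0.06, adjusted p = 0.000214), 1.08 in 32 (SE 0.06, adjusted p = 0.000167), 1.23 in S8 (SE 0.07, adjusted p = 0.000176) and 1.55 in T2 (SE 0.07, adjusted p = 0.000215).

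Of 11 H3K9 demethylases 10 were tested. More were lower than higher in every line, which is also the direction of all tested genes (25.7% higher and 29.9% lower in 16-6, 28.6% and 32.9% in 32, 32.1% and 34.6% in S8, 27% and 30.9% in T2). The counts against R1 were 1 higher and 7 lower in 16-6, 2 and 5 in 32, 1 and 6 in S8, and 1 and 6 in T2, with medians of -0.43, -0.18, -0.50 and -0.23 that stayed below 0 with both other scalings. Jmjd1c was at 84.8 and 83.5 FPKM in R1 and 31.1 in S8 (-1.41, SE 0.06, adjusted p = 0.000111), with 69.9 in T2 and 73.7 to 84.9 in 16-6 and 32. Jhdm1d was at 8.61 and 7.95 FPKM in R1, 4.97 and 5.16 in 16-6, 3.77 and 4.15 in 32, 3.53 in S8 and 5.05 in T2. It was lower in each line, from -0.61 (adjusted p = 0.00191) in 16-6 to -1.03 (adjusted p = 0.000476) in S8.

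The 12 other heterochromatin factors were all tested. In 16-6, 0 were higher and 6 lower than in R1, in 32 6 and 3, in S8 5 and 4, and in T2 5 and 6, and the medians were -0.25, 0.16, -0.10 and -0.11. Quantile normalization turned the median in 32 to -0.0101 and gave 3 higher and 6 lower in S8. The counts are to be read against the shares of all tested genes given for the demethylases. In all, 3 genes passed 2-fold in S8 and none in another line. Of all tested genes, 16.7% did so in S8, 7.11% in 16-6, 9.77% in 32 and 10.5% in T2. Atrx, the remodeler that deposits histone H3.3 at repeats, was at 83.6 and 79.4 FPKM in R1 and 29.5 in S8 (-1.43, SE 0.06, adjusted p = 0.0001). Daxx, the H3.3 chaperone that binds ATRX, was at 32.8 and 32.7 FPKM in R1 and 72.2 in S8 (1.12, SE 0.04, adjusted p = 8.27e-05). Chaf1b, a subunit of chromatin assembly factor 1, was at 43.9 and 43.2 FPKM in R1 and 94.1 in S8 (1.09, SE 0.05, adjusted p = 0.000107). T2 lay on the same side of R1 in all 3, with 54.7, 50.5 and 65.9 FPKM.

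**Figure D5:**
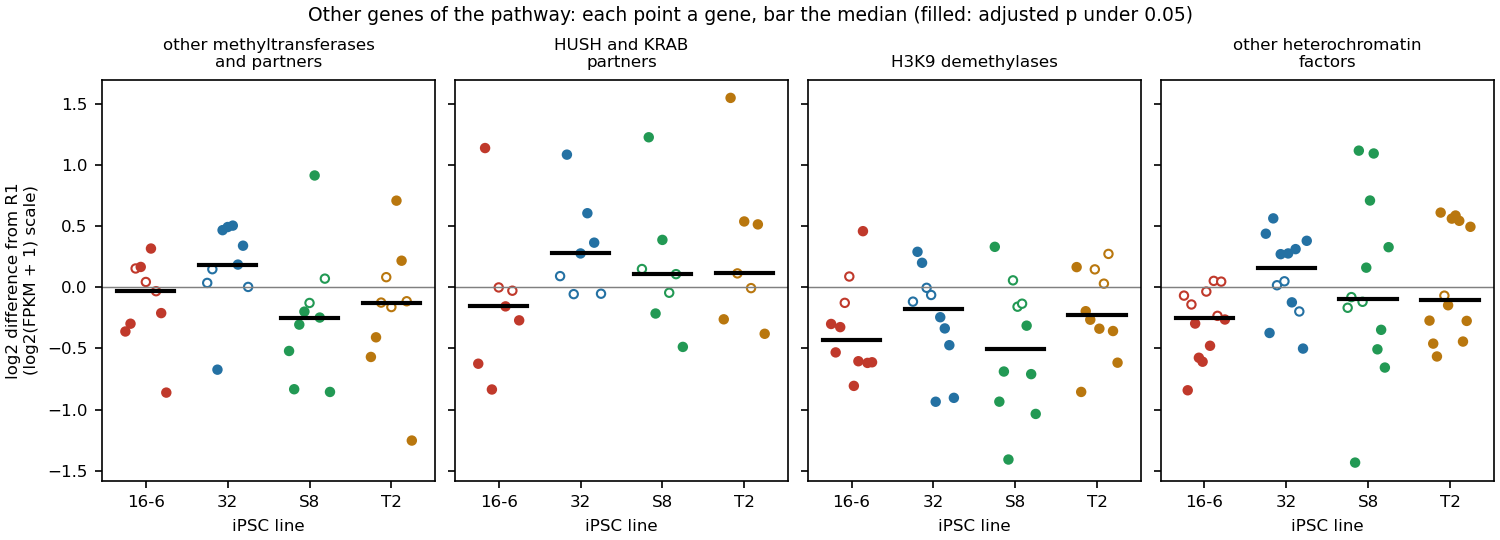
Log2 differences from R1 (vertical axis) of the tested genes of 4 lists in each iPSC line (horizontal axis), filled where the adjusted p was under 0.05, with a bar at the list's median. The demethylase medians lie below 0 in each line, and Pphln1 is the point above 1 in the second panel.

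Genes known as repressed by SETDB1, TRIM28 or G9a in ESCs stayed near the floor. Of 9 such genes 8 were found in the files, 5 were listed at 0 in every library, and the sum of the 8 was at most 1.92 FPKM. The 5 at 0 were Magea1, Magea2, Magea3, Magea5 and Magea8. Only unique alignments were kept, and whether reads can align uniquely to these genes was not tested, so their zeros do not show silence. Only Cdx2 was tested, at 0.0956 and 0.0936 FPKM in R1, 0.749 and 1.31 in 16-6, 1.10 and 0.845 in 32, 0.0824 in S8 and 0.359 in T2. Cdx2 passed the filter only through the library of 16-6 at 1.31 FPKM and that of 32 at 1.10 FPKM. A test of these lines against R1 is therefore not independent of the filter, and only effect sizes are given. The fitted difference from R1 was 0.88 in 16-6 and 0.85 in 32, on a scale that understates changes of genes this low.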

How the data were processed

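RNA-seq was analysed for 8 libraries of 5 lines. As the study's methods state, the authors aligned paired reads by TopHat 2.0.4, on UCSC gene models of mm9, and kept unique alignments. They computed expression with Cufflinks, version 2.0.0 per the submitters' processing notes, and deposited per library an FPKM with its confidence limits for each gene. Normalization options and strand handling are not given in the sources used here. All values were divided by 12725.7, which brings the median library total to 1000000 and leaves ratios unchanged. The totals were not made equal and ran from 899033 in T2 to 1.26e+06 in 32 replicate 1. Starts in the files count from 0, and 1 was added.

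Genes that reached an FPKM of 1 in any library were tested on log2(FPKM + 1) with limma 3.58.1 (R 4.3.3, lmFit and eBayes with trend). The 5 lines were the groups, with 3 residual degrees of freedom. Genes were called at a Benjamini-Hochberg adjusted p under 0.05 over 13693 genes, and those of at least 2-fold are counted beside. The pseudocount of 1 makes a fold change understate the change of low genes. Counts were not used. The fragments behind a value were estimated from the confidence limits, on the assumption that they reflect sampling noise alone. The Setdb1 values in R1 do not bear this assumption out.

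The 10 members and the other lists were chosen with earlier results of these data known. Other pathway genes are named with values where they were called at 2-fold or more against R1 in a line, with Cdx2 added because it alone of its list was tested. Tfap2a was not matched in the files. The mm9 genome and its GENCODE annotation served for windows and overlaps, and RefSeq promoters (GRCm38.p6) for upstream sequence, matched by symbol for all 10 members. Alternatives were another pseudocount, other filters and scalings, other moderation, left-out libraries and a replicate block. Same-numbered replicates did not deviate together (correlations of -0.10, 0.00102 and 0.03).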

Additional observations from a re-analysis of the deposited data

Results flagged for a closer look

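One result was singled out, by a call and a difference of at least 2-fold between 16-6 and 32 or between S8 and T2. The differences of Zfp57 from R1 were not the same in the 2 mesodermal lines, at -1.08 in 16-6 and -0.08 in 32, and the contrast of 16-6 with 32 was -1.01 (adjusted p = 0.000203 by limma with Benjamini-Hochberg adjustment). Both libraries of 16-6 lay below both libraries of 32, and every alternative kept the call. The difference did not stay at 2-fold in all of them, the smallest being -0.81.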

How the results depend on the processing

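Of 43 differences of members past the threshold over 7 comparisons, 32 kept their direction and call under every alternative to the main fit. Among 1040 alternative values, 957 kept direction and side of the threshold, 54 lost the threshold, 16 gained it and 13 changed sign. Under quantile normalization the members called numbered 8 in place of 5 for 16-6 against R1 and 3 in place of 5 for S8 against T2, and signs changed for Cbx1 in 32 (-0.16) and S8 (-0.23) against R1 and in S8 against T2 (-0.0454), Setdb1 in 32 (-0.0103), Cbx5 in 16-6 against 32 (0.0644), Cbx3 in S8 against T2 (-0.22) and the mean of Ehmt2 (-0.0166). With the 16-6 libraries averaged, 3 members were called for 16-6 against R1. A 2-fold minimum left 1, 0, 1 and 2 members for 16-6, 32, S8 and T2 against R1, 1 for 16-6 against 32, 0 for S8 against T2 and 0 for the mean. With 1 library left out, the count for 16-6 against R1 was 2 to 6. The differences that then changed sign were near 0 and were not called. Their values over the left-out libraries ran from -0.0526 to 0.0104 for Cbx5, -0.00505 to 0.0687 for Ehmt1 and -0.15 to 0.00202 for Zfp57 in 32 against R1, -0.047 to 0.12 for Suv39h1 in 16-6 against 32 and -0.0252 to 0.00114 for the mean of Cbx1. The fit with a replicate block, on R1, 16-6 and 32, called 4, 4 and 7 members for 16-6 against R1, 32 against R1 and 16-6 against 32. That block ended 2 member calls, Ehmt2 in 16-6 and Cbx1 in 32. The cause of these changes was not tested. The single libraries of S8 and T2 limit the precision there.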
